A study of Homo sapiens with 6 samples.

Results

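Desmosomes are the junctions that tie the keratin filaments of neighbouring epithelial cells together. Their cadherins, the desmogleins and desmocollins, bridge the gap between cells, the armadillo proteins plakoglobin and the plakophilins gather on the cadherin tails, and desmoplakin links that plaque to keratin. Keratin filaments are built from pairs of a type I and a type II chain, and keratins 8, 18 and 19 are those of simple epithelium such as the lining of the stomach.

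The genes described here are 6 of the desmosome (DSC2, DSG2, DSP, JUP, PKP2 and PKP3) and 4 keratin genes (KRT8, KRT18, KRT19 and KRT80), taken by gene name from the deposited table of 11187 protein-coding genes. All 10 were in the table, and all 10 were among the 10286 genes that passed the filter of a mean of at least 1 FPKM (fragment counts divided by transcript length and by library size). The cells were AGS, an epithelial cell line established from a human gastric adenocarcinoma. They were transfected transiently with mimics of the microRNA miR-3648 or with NC, a control whose sequence the labels do not give. There were 3 libraries of each, and all 6 came from this 1 line. The title places the study in metastasis and invasion of gastric cancer cells. The labels give neither the dose nor the time after transfection. They also do not say that replicates are separate cultures, and p-values then cover only the variation among these libraries, possibly technical.

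A microRNA mimic is a synthetic duplex that loads the mature strand into Argonaute, which then pairs through the seed, bases 2 to 8, with target messages. The mature strand of miR-3648 is shown because it is the agent of the study. It is given in RefSeq (GRCh38.p14, chromosome 21, 8987026 to 8987046, plus strand), with the seed in capitals.
hsa-miR-3648: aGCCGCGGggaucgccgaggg
A match of 7 bases was searched on the sense strand of each transcript, in 2 forms: CCGCGGC, which pairs with the whole seed and CGCGGCA, which pairs with all but its last base and has an A opposite base 1. The forms overlap, and where both occur together they were counted as 1 match. Neither form was found in the longest annotated 3' UTR of any of the 10 genes, which ran from 126 nucleotides in KRT19 to 9175 in DSC2. Among tested genes, 2.12% (216 genes) had such a site in the 3' UTR. Matches in coding sequence were found in 5 of the 10 genes, against 14.3% of the 10213 tested genes with a coding sequence (1457 genes). Apart from the A, both forms are made of G and C only. The median GC content of the transcript was 58.5% in the 10 genes and 49.1% in all tested genes. The shares were not compared at like GC content, so no excess of matches is read from them. The stretches are shown, with the match in capitals, because they are where the seed could pair with these messages. They were read from GENCODE 29 transcripts (GRCh38), and positions count from the first base of the coding sequence.
PKP2: agcagcggCCGCGGCggccagaca
PKP3, first match: gacagcagCCGCGGCAcaacgggg
PKP3, other match: gctggagcCCGCGGCcacctccac
KRT8: aggacatggCGCGGCAgctgcgtg
KRT19: tccggcggCCGCGGCgtatccgtg
KRT80: aggacatggCGCGGCAgctgcgca
The capitals start at base 135 of the PKP2 coding sequence, at bases 181 and 611 in PKP3 and at base 126 in KRT19. In KRT8 and KRT80 they are the form with the A and start just after bases 1186 and 1078. The KRT8 and KRT80 windows, both from type II keratins, are the same at 22 of 24 bases. A match is a description of the letters and not a measured site of binding.

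The depth of the libraries is unknown, because whole reads could not be recovered from low FPKM. On the log2(FPKM + 1) scale, Pearson's r over tested genes was 0.984 between mimics libraries and 0.982 between NC replicates 1 and 2. NC replicate 3 stood apart, at 0.964 to 0.971 with the other NC libraries and 0.978 to 0.979 with the mimics libraries. Across genes, the log2 fold change ran against the GC content of the transcript (Spearman's rho -0.50), and so did the deviation of NC replicate 3 from NC replicates 1 and 2 (rho -0.71). Genes are not independent replicates, so these are descriptions. The fold change of each member is therefore given with and without NC replicate 3 and with GC correction, which subtracts each library's trend on GC content.

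No desmosome or keratin member passed the limma test over all genes. The count was 0 of 10, where 0.408% of tested genes passed (42 genes), and 2 of the 10, DSC2 and DSP, had an unadjusted p under 0.05, where 14.6% of tested genes did. The groups did not overlap for 3 members, with mimics above NC in DSC2 and DSG2 and below it in DSP (22.2% of tested genes did not overlap, 8.68% with mimics above and 13.5% with mimics below). In these bulk libraries fewer cells with a transcript and less of it per cell cannot be told apart. The median log2 fold change was -0.11 over the 6 desmosome genes and 0.04 over the 4 keratin genes, where it was -0.0046 over all tested genes. Without NC replicate 3 the medians were -0.12 for the desmosome genes and -0.0048 for the keratin genes, and with GC correction -0.045 and 0.15. Without NC replicate 2 the keratin median was 0.13, so over the left-out libraries it ran from -0.0048, near 0, to 0.13. The values of single libraries were closer together in the mimics group: the coefficient of variation was lower there than in NC for 10 of 10 members, and for 76.4% of tested genes.

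**Figure D1:**
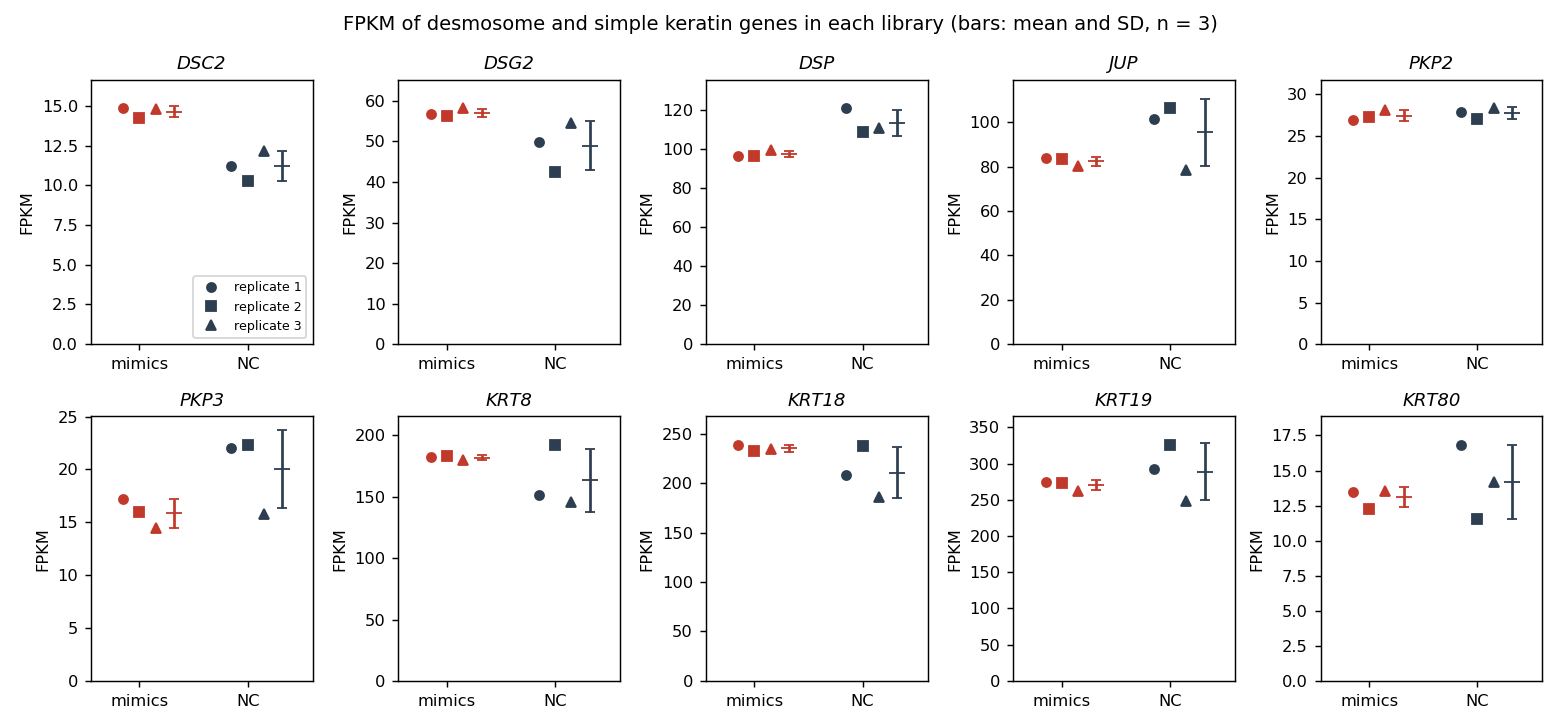
FPKM of the 10 genes in each library, with the mimics group left of NC, 3 libraries each, on axes that start at 0. The points are single libraries, the shape gives the replicate number, and the bars show the mean and SD. In DSC2 and DSG2 all mimics libraries lay above all NC libraries, in DSP all lay below, and in the other 7 genes the groups overlapped.

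On the FPKM scale, which is per length, the levels kept 1 order in every library down to PKP2: KRT19 was highest, followed by KRT18, KRT8, DSP, JUP, DSG2 and PKP2. KRT19, at 270.3 ± 6.79 FPKM in mimics and 289 ± 39.0 FPKM in NC libraries (SD, n = 3 each), ranked 48 among tested genes. KRT8 and KRT18 ranked 108 and 75, DSP 228, JUP 294 and DSG2 574. The lower end of the order was not fixed. PKP3 was above DSC2 in mimics replicates 1 and 2 and in all NC libraries but below it in mimics replicate 3, and DSC2 and KRT80 changed places between the groups. The 4 keratin genes summed to 700.4 ± 9.82 FPKM in mimics and 677 ± 87.2 FPKM in NC libraries, and the 6 desmosome genes to 295 ± 1.17 FPKM in mimics and 317 ± 16.97 FPKM in NC libraries (SD, n = 3 each). KRT8, KRT18 and KRT19 made up 98.1% ± 0.108 of the keratin sum in mimics and 97.9% ± 0.551 in NC libraries.

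DSC2 and DSG2 encode desmocollin 2 and desmoglein 2, the desmosomal cadherins of simple epithelium. DSC2 (ENSG00000134755, chromosome 18, 28638806 to 28682378, minus strand) had 14.9, 14.2 and 14.8 FPKM in mimics libraries, against 11.2, 10.3 and 12.2 FPKM in NC libraries. Every mimics value lay above every NC value. The log2 fold change was 0.36 (SE 0.08, 95% interval 0.16 to 0.55), the limma adjusted p was 0.16, and it was 0.028 without NC replicate 3 (log2 fold change 0.41). DSG2 (ENSG00000046604, chromosome 18, 29078006 to 29128971, plus strand) had 56.7, 56.2 and 58.2 FPKM in mimics libraries, against 49.9, 42.5 and 54.5 FPKM in NC libraries. The groups did not overlap, and the highest NC value, in replicate 3, was close to the mimics values. Its log2 fold change was 0.22 (SE 0.10, 95% interval -0.0043 to 0.45, limma adjusted p = 0.35). It was 0.30 without NC replicate 3 (adjusted p = 0.054) and 0.13 without NC replicate 2 (adjusted p = 0.48). Both transcripts are poor in GC, at 38.9% for DSC2 and 42.0% for DSG2, where the median of tested genes was 49.1%. With GC correction the log2 fold changes were 0.22 for DSC2 and 0.13 for DSG2 (limma adjusted p = 0.18 and 0.27). Of the other desmosomal genes looked up, DSC1, DSC3, DSG1, DSG3, DSG4, PKP1 and CDSN, were not among the genes of the table.

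Desmoplakin, encoded by DSP (ENSG00000096696, chromosome 6, 7541808 to 7586950, plus strand), is the plaque protein that binds keratin. DSP had 96.7, 96.8 and 99.6 FPKM in mimics libraries, against 121, 109 and 111 FPKM in NC libraries. All mimics values lay below all NC values, and NC replicate 3 lay between the other NC libraries. The log2 fold change was -0.21 (SE 0.06, 95% interval -0.37 to -0.06, limma adjusted p = 0.23). It was -0.23 without NC replicate 3 (adjusted p = 0.057) and -0.20 with GC correction (adjusted p = 0.14), and the transcript has a GC content of 47.9%, near the median.

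JUP encodes plakoglobin, which binds the tails of desmosomal and also of classical cadherins, and PKP2 and PKP3 encode plakophilins, which cluster the plaque. JUP (ENSG00000173801, chromosome 17, 39910856 to 39943183, minus strand) had 83.9, 83.3 and 80.1 FPKM in mimics libraries, against 102, 106 and 78.3 FPKM in NC libraries. NC replicates 1 and 2 lay above all mimics libraries and NC replicate 3 below them. The log2 fold change was -0.20 (SE 0.12, 95% interval -0.47 to 0.08, limma adjusted p = 0.46). PKP3 (ENSG00000184363, chromosome 11, 392614 to 404908, plus strand) had 17.2, 16.0 and 14.4 FPKM in mimics libraries, against 22.1, 22.3 and 15.7 FPKM in NC libraries. The same split was seen, with NC replicate 3 inside the mimics range. Its log2 fold change was -0.31 (SE 0.14, 95% interval -0.65 to 0.03, limma adjusted p = 0.38). Without NC replicate 3 both passed, JUP at -0.33 (adjusted p = 0.027) and PKP3 at -0.46 (adjusted p = 0.030). Leaving out another NC library gave values nearer 0, -0.11 for JUP (adjusted p = 0.71) and -0.22 for PKP3 (adjusted p = 0.59) when NC replicate 2 was dropped. Dropping NC replicate 1 gave -0.145 for JUP and -0.23 for PKP3 (adjusted p = 0.79 and 0.72). With GC correction over all libraries they were at -0.08 and -0.13 (adjusted p = 0.58 and 0.46), and their transcripts are rich in GC, at 61.5% for JUP and 66.7% for PKP3.

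PKP2 (ENSG00000057294, chromosome 12, 32943679 to 33049774, minus strand) had 26.8, 27.3 and 28.1 FPKM in mimics libraries, against 27.9, 27.0 and 28.3 FPKM in NC libraries. The ranges overlapped, with mimics replicate 1 the lowest and NC replicate 3 the highest of the 6 libraries. The log2 fold change was -0.02 with a 95% interval of -0.17 to 0.13 (limma adjusted p = 0.91). It was -0.0018 without NC replicate 3 (adjusted p = 0.98) and -0.01 with GC correction, and the transcript has a GC content of 46.8%.

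KRT8 and KRT18 encode the type II and type I chains that pair in simple epithelium. They lie side by side on chromosome 12, KRT8 (ENSG00000170421) from 53290971 to 53343738 on the minus strand and KRT18 (ENSG00000111057) from 53342655 to 53346685 on the plus strand, and the 2 overlap. The sources used here do not say whether reads were quantified by strand, and GENCODE 29 names 50 pseudogenes of KRT8 and 67 of KRT18, so their FPKM are uncertain where reads could be shared. KRT8 had 182, 183 and 179.5 FPKM in mimics libraries, against 152, 192 and 146 FPKM in NC libraries. KRT18 had 239, 232 and 234 FPKM in mimics libraries, against 209, 238 and 186 FPKM in NC libraries. For both genes the mimics values lay near NC replicate 2, the highest NC library, and above NC replicates 1 and 3. The log2 fold change was 0.16 for KRT8 (95% interval -0.09 to 0.42, limma adjusted p = 0.49) and 0.17 for KRT18 (95% interval -0.05 to 0.38, adjusted p = 0.43). Without NC replicate 3 these were 0.09 and 0.08 (adjusted p = 0.56 and 0.42), without NC replicate 2 0.29 and 0.26 (adjusted p = 0.15 and 0.27), and with GC correction 0.27 and 0.28 (adjusted p = 0.16 and 0.077). Their GC contents are 60.2% and 60.5%, and genes at or above 60% GC had a median log2 fold change of -0.13 (1625 genes), with 79.9% of them negative.

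KRT19 encodes a type I keratin that lacks the usual tail. KRT19 (ENSG00000171345, chromosome 17, 39679869 to 39684560, minus strand) had 275, 273 and 263 FPKM in mimics libraries, against 292, 326 and 248 FPKM in NC libraries. NC replicate 3 was lowest of all 6 libraries, and NC replicates 1 and 2 were highest. The log2 fold change was -0.09 (95% interval -0.32 to 0.15, limma adjusted p = 0.69), -0.19 without NC replicate 3 (adjusted p = 0.085) and 0.04 with GC correction, so no direction can be given. KRT80 encodes a type II keratin. KRT80 (ENSG00000167767, chromosome 12, 52562780 to 52585784, minus strand) had 13.5, 12.3 and 13.5 FPKM in mimics libraries, against 16.8, 11.5 and 14.2 FPKM in NC libraries. The NC libraries spread on both sides of the mimics libraries, with a log2 fold change of -0.09 (95% interval -0.41 to 0.22, limma adjusted p = 0.75). It was -0.09 without NC replicate 3, 0.029 without NC replicate 1, which was the highest library, and -0.01 with GC correction at a GC content of 56.8%.

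**Figure D2:**
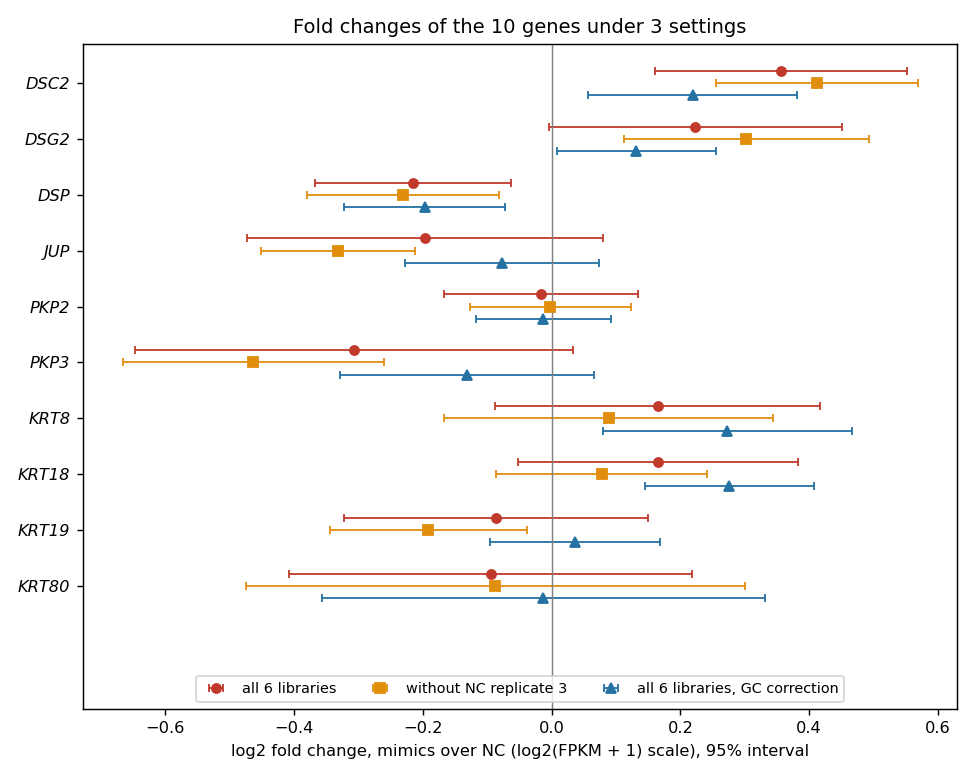
Log2 fold changes of mimics over NC for the 10 genes, on the log2(FPKM + 1) scale, with limma's 95% intervals, for all 6 libraries, without NC replicate 3, and for all 6 libraries with GC correction. JUP lay at -0.33 without NC replicate 3 and -0.08 with GC correction, while DSP lay between -0.23 and -0.20 in all 3 settings.

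Without NC replicate 3, 3 of 10 members passed, DSC2 higher and JUP and PKP3 lower in mimics libraries, where 14.8% of tested genes passed (1527 genes, 7.76% higher and 7.09% lower). With GC correction none of the 10 passed, where 1.11% of the 10213 genes with a GC value did (0.656% higher and 0.450% lower in mimics). With both GC correction and NC replicate 3 left out, a setting chosen after the data were seen, none of the 10 passed either. There 1.22% of genes passed (0.725% higher and 0.499% lower in mimics). An unadjusted limma p under 0.05 was found for 5 and 6 of the 10 in these settings. The share of all genes under that limit was not counted there, so nothing is read from these counts. The position of NC replicate 3 differed from gene to gene. On the log2 scale it lay from NC replicates 1 and 2 by -0.40 in JUP, -0.47 in PKP3, -0.31 in KRT19, -0.26 in KRT18 and -0.23 in KRT8, all at 60% GC or more. It lay at 0.17 in DSC2 and 0.24 in DSG2, and at -0.05 in DSP, 0.04 in PKP2 and 0.02 in KRT80. The part of NC replicate 3 and of GC content in each fold change was not tested beyond these values.

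**Figure D3:**
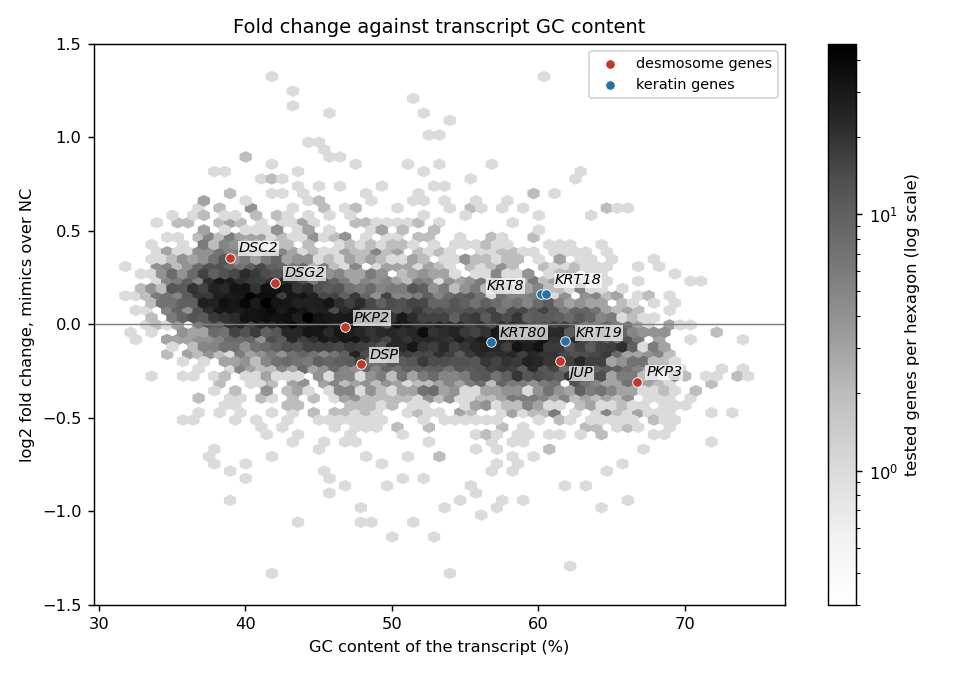
Log2 fold change of mimics over NC against the GC content of the transcript, for 10213 tested genes in grey hexagons, of which 6 lie beyond the axis limits of -1.5 and 1.5. DSC2 at 38.9% GC and 0.36 and PKP3 at 66.7% GC and -0.31 mark the ends of the desmosome genes, with DSP at 47.9% GC and -0.21. KRT8 and KRT18, at 60.2% and 60.5% GC, lie above -0.13, the median of all genes at or above 60% GC, and are at the lower edge of that class.

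Ratios of FPKM within a library remove any scale factor that all genes of the library share. They were computed after the values had been seen and are descriptions without a test. Of the 45 pairs that the 10 genes form, 21 had ratios that did not overlap between the groups (46.7%), where 21.2% of all pairs of tested genes had such ratios. The pairs share genes, so they are not independent. The pairs of DSP with DSC2 and with DSG2 had to separate, because these genes already did so in opposite directions.

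The KRT8 to KRT18 ratio was 0.763, 0.789 and 0.766 in mimics libraries, against 0.727, 0.8085 and 0.784 in NC libraries. The mimics ratios lay within the range of the NC ratios. The KRT18 to KRT19 ratio, between type I chains, was 0.869, 0.850 and 0.893 in mimics libraries, against 0.714, 0.730 and 0.748 in NC libraries. Here all mimics libraries lay above all NC libraries. The GC contents of the transcripts are 60.5% and 61.8%, and the cause of the separation was not tested. The FPKM of KRT18 are uncertain, as said above: it overlaps KRT8 and has 67 named pseudogenes, against 5 for KRT19. The difference of the log2 fold changes, KRT18 minus KRT19, was 0.25. Filters, scalings, the intensity trend and the replicate block leave such a difference all but unchanged by construction. It was 0.24 with GC correction and lay between 0.23 and 0.27 when 1 library was left out. The KRT8 to KRT19 ratio was 0.663, 0.671 and 0.684 in mimics libraries, against 0.519, 0.590 and 0.587 in NC libraries, which did not overlap either.

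In the desmosome DSC2 and DSG2 were higher relative to DSP in mimics libraries. This follows from their own values and is no separate result, because DSC2 and DSG2 lay above NC and DSP below it. The DSG2 to DSP ratio was 0.586, 0.580 and 0.585 in mimics libraries, against 0.411, 0.391 and 0.491 in NC libraries, and the DSC2 to DSP ratio was 0.154, 0.147 and 0.149 in mimics libraries, against 0.0926, 0.0946 and 0.110 in NC libraries. The DSC2 minus DSP difference of log2 fold changes was 0.57, and between 0.52 and 0.64 when 1 library was left out. It was 0.42 with GC correction and 0.37 with GC correction and NC replicate 3 left out. DSC2 was also higher relative to DSG2, at 0.262, 0.253 and 0.254 in mimics libraries, against 0.225, 0.242 and 0.224 in NC libraries. With GC correction and NC replicate 3 left out, their log2 fold changes were close, at 0.16 for DSC2 and 0.14 for DSG2. DSC2 stood above KRT80 in every mimics library and below it in every NC library, with ratios of 1.10, 1.16 and 1.095 in mimics, against 0.667, 0.890 and 0.859 in NC. A ratio does not remove a trend on GC content, which is 38.9% for DSC2 and 56.8% for KRT80. The log2 fold changes of DSC2 and KRT80 were 0.36 and -0.09, and with GC correction 0.22 and -0.01. With GC correction and NC replicate 3 left out they were 0.16 and 0.053. The JUP to DSP ratio overlapped between groups, at 0.868, 0.860 and 0.8045 in mimics libraries, against 0.838, 0.978 and 0.706 in NC libraries. JUP relative to KRT19 was 0.305, 0.3045 and 0.305 in mimics libraries, against 0.348, 0.326 and 0.315 in NC libraries, so all mimics ratios lay below all NC ratios.

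**Figure D4:**
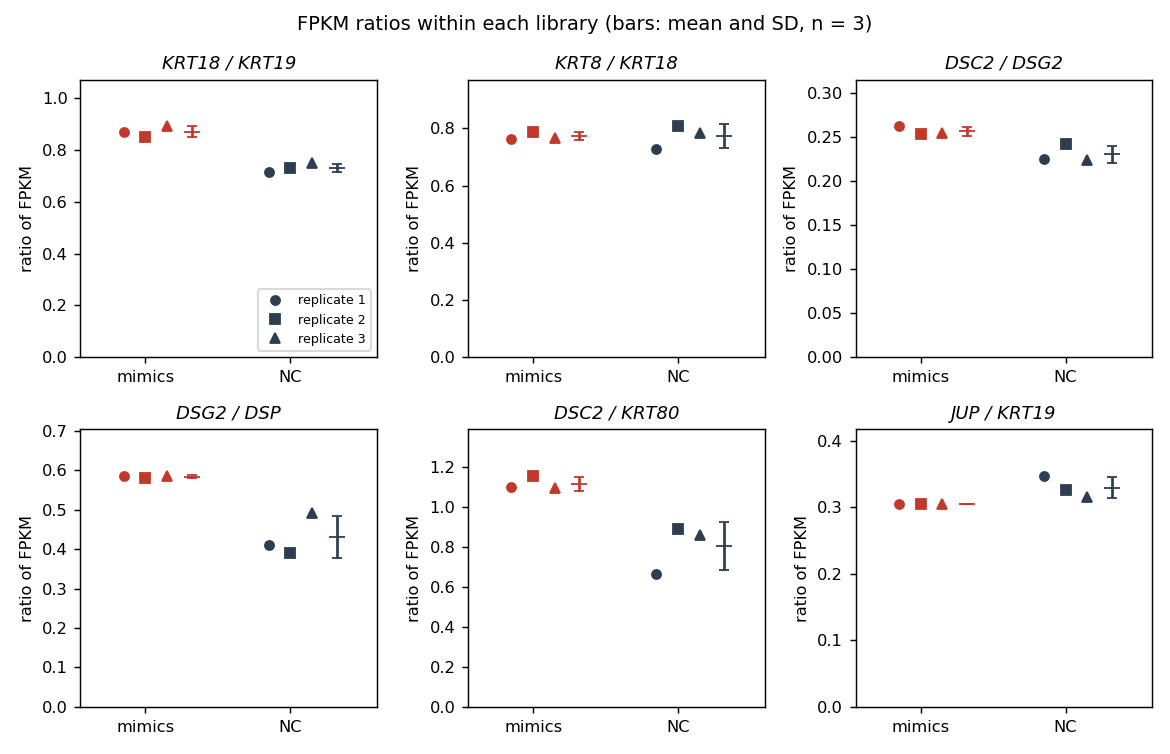
FPKM ratios of 6 pairs of genes within each library, with mimics left of NC, 3 libraries each, on axes that start at 0, and bars for the mean and SD. KRT18 over KRT19 separates the groups, at 0.850 to 0.893 in mimics and 0.714 to 0.748 in NC, while KRT8 over KRT18 does not.

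Genes that work with desmosomes and keratins were read in 7 lists, and no gene of any of them passed over all 6 libraries. In the order below, the unadjusted p was under 0.05 for 2 of 4, 1 of 2, 0 of 4, 1 of 14, 2 of 5, 0 of 10 and 3 of 8 tested genes. Of all tested genes 14.6% had such a p, and with so few genes in a list these counts are descriptions. Of 4 tested genes among the other desmosomal genes (1 positive, 3 negative, median log2 fold change -0.11), PERP, a membrane protein of desmosomes and a p53 target, was at 121 ± 2.95 FPKM in mimics and 104 ± 3.96 FPKM in NC libraries (log2 fold change 0.22, limma adjusted p = 0.21). Its groups did not overlap. Its GC content is 41.2%, and its log2 fold change was 0.21 without NC replicate 3 (adjusted p = 0.051), 0.11 with GC correction (adjusted p = 0.57) and 0.023 with both. PKP4, a plakophilin relative, was at 6.69 ± 0.325 FPKM in mimics and 7.91 ± 0.5395 FPKM in NC libraries (adjusted p = 0.32). EVPL, encoding the plakin envoplakin, was at 2.64, 2.73 and 6.55 FPKM in mimics libraries, against 3.51, 3.42 and 7.64 FPKM in NC libraries, so that replicate 3 was high in both groups. PPL, encoding the plakin periplakin, was at 36.9, 36.1 and 36.5 FPKM in mimics libraries, against 48.0, 46.8 and 21.9 FPKM in NC libraries. It was named because it passed without NC replicate 3 (log2 fold change -0.37, adjusted p = 0.024), the library in which it was lowest, and with all libraries the log2 fold change was -0.0068.

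Of the other simple keratins 2 were tested. KRT23, a type I keratin, was at 7.54 ± 0.688 FPKM in mimics and 9.79 ± 0.221 FPKM in NC libraries, with groups that did not overlap (log2 fold change -0.34, limma adjusted p = 0.20), and NC replicate 3 stood with the other NC libraries. KRT7, a type II keratin of glands, was at 2.22 ± 0.1255 FPKM in mimics and 2.03 ± 0.200 FPKM in NC libraries. KRT20 was listed below the filter. Of 21 keratins of stratified epithelium and hair, 6 were in the table and 4 were tested (3 positive, 1 negative, median 0.09). KRT10 was at 12.5 ± 0.697 FPKM in mimics and 11.4 ± 0.594 FPKM in NC libraries, KRT17 at 5.02 ± 1.34 FPKM in mimics and 3.80 ± 0.386 FPKM in NC libraries, and KRT81 at 1.90 ± 0.467 FPKM in mimics and 1.74 ± 0.268 FPKM in NC libraries (SD, n = 3 each).

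Of 14 tested linkers and regulators, 11 had negative and 3 positive log2 fold changes, with a median of -0.17. PLEC, encoding the cytolinker plectin that ties keratin to hemidesmosomes, was at 8.65, 11.3 and 8.10 FPKM in mimics libraries, against 18.3, 14.5 and 10.2 FPKM in NC libraries (log2 fold change -0.54, limma adjusted p = 0.31). FAM83H, a keratin-binding protein, was at 15.55 ± 0.531 FPKM in mimics and 19.05 ± 2.81 FPKM in NC libraries (adjusted p = 0.34), and its relative FAM83D, a spindle protein, at 34.2 ± 0.289 FPKM in mimics and 38.95 ± 3.16 FPKM in NC libraries (adjusted p = 0.34). PLEC and FAM83H are rich in GC (66.97% and 66.25%) and low in NC replicate 3, as PKP3 is. Without NC replicate 3, 5 of the 14 passed, all lower in mimics libraries, where 14.8% of tested genes did. They were PLEC, FAM83H, FAM83D, EPPK1 (epiplakin, a keratin binder) and KRTCAP3, the last 2 named after their values were seen. With GC correction PLEC was at -0.36, FAM83H at -0.10 and FAM83D at -0.14 (adjusted p = 0.33, 0.44 and 0.24).

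**Figure D5:**
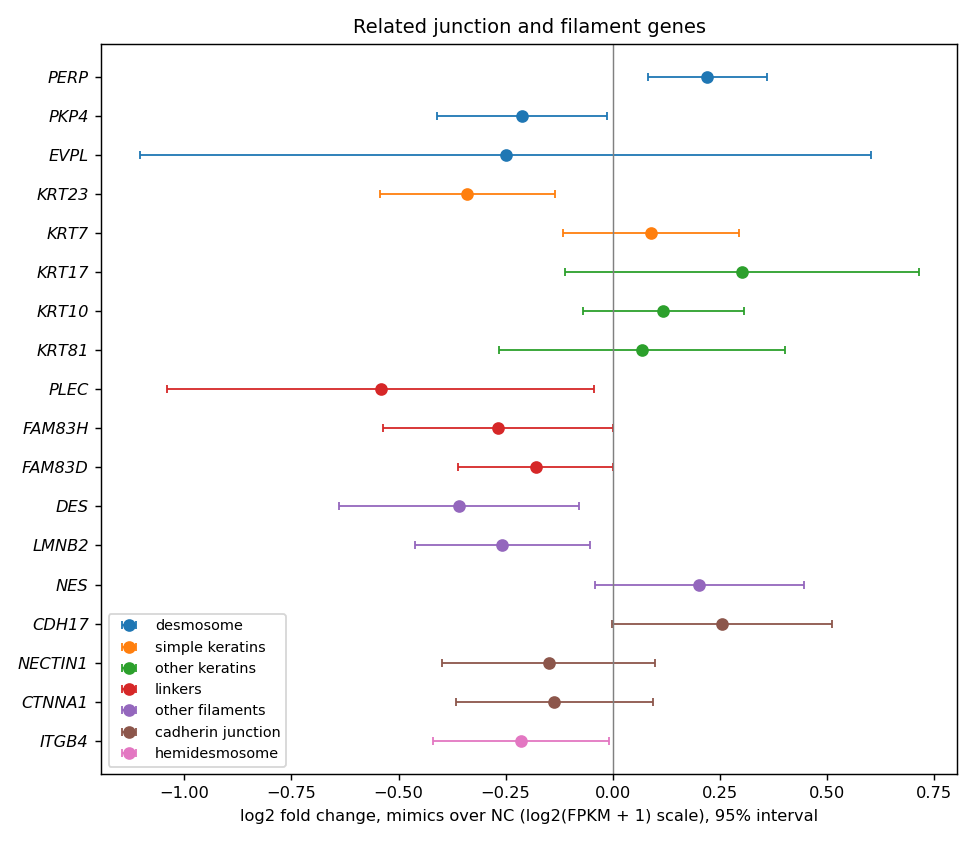
Log2 fold changes of mimics over NC with limma's 95% intervals for up to 3 genes of small p in each of the 7 lists of related genes, coloured by list, each gene drawn once. PERP has an interval above 0, PKP4, KRT23, PLEC, DES, LMNB2 and ITGB4 have intervals below 0, and none passed after adjustment over all genes.

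Of 5 other intermediate filament genes tested (1 positive, 4 negative, median -0.11), DES, the desmin gene of muscle, was at 4.69 ± 0.496 FPKM in mimics and 6.32 ± 0.917 FPKM in NC libraries (limma adjusted p = 0.27). LMNB2, a nuclear lamin gene, was at 34.55 ± 0.516 FPKM in mimics and 41.65 ± 4.18 FPKM in NC libraries (adjusted p = 0.27). LMNB2 passed without NC replicate 3 (log2 fold change -0.34, adjusted p = 0.025) and was at -0.14 with GC correction (adjusted p = 0.17). NES, the nestin gene, was at 23.4 ± 0.617 FPKM in mimics and 20.35 ± 2.80 FPKM in NC libraries. Vimentin, VIM, lay below the filter at 0.747 ± 0.149 FPKM in mimics and 0.6025 ± 0.113 FPKM in NC libraries (SD, n = 3 each).

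Of 10 tested genes of the classical cadherin junction (2 positive, 8 negative, median -0.05), the E-cadherin gene CDH1 was at 3.22 ± 0.886 FPKM in mimics and 3.35 ± 0.343 FPKM in NC libraries, below DSG2 and DSC2 per length in both groups. CDH17, the liver-intestine cadherin, was at 142, 137 and 140.4 FPKM in mimics libraries, against 116, 101 and 137 FPKM in NC libraries (log2 fold change 0.25, limma adjusted p = 0.34). It passed without NC replicate 3 (0.37, adjusted p = 0.033) and was at 0.15 without NC replicate 2 (adjusted p = 0.50) and 0.19 with GC correction (adjusted p = 0.24). NECTIN1, an adhesion receptor gene, was at 6.745 ± 0.303 FPKM in mimics and 7.63 ± 0.994 FPKM in NC libraries, and the alpha-catenin gene CTNNA1 at 40.4 ± 5.265 FPKM in mimics and 44.3 ± 0.639 FPKM in NC libraries. Of 8 tested hemidesmosome genes, 4 had positive and 4 negative log2 fold changes, with a median of 0.05. ITGB4, the integrin subunit of hemidesmosomes, was at 12.02 ± 0.557 FPKM in mimics and 14.1 ± 1.21 FPKM in NC libraries (log2 fold change -0.21, adjusted p = 0.33). It passed without NC replicate 3 (-0.28, adjusted p = 0.042) and was at -0.07 with GC correction (adjusted p = 0.50) and -0.06 with both, at a GC content of 63.7%.

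The epithelial label was checked with 10 defining markers, of which 9 were in the table. EPCAM was at 202 ± 4.90 FPKM in mimics and 182 ± 4.03 FPKM in NC libraries (SD, n = 3 each), and the summed markers ran from 566 to 587 FPKM in mimics and from 519.7 to 536.5 FPKM in NC libraries. Of 12 stratified squamous markers 2 were listed, of 10 fibroblast markers 3, of 10 leukocyte markers 3 and of 8 endothelial markers 1. Their sums ran from 12.3 to 13.9 FPKM in mimics and 11.5 to 12.6 FPKM in NC for squamous markers, held mostly by KRT10, and from 4.62 to 5.18 FPKM in mimics and 4.69 to 4.73 FPKM in NC for fibroblast markers. Leukocyte markers summed to 5.69 to 6.10 FPKM in mimics and 6.98 to 8.05 FPKM in NC, held mostly by LYZ, which gastric glands also make, and endothelial markers to 1.87 to 2.84 FPKM in mimics and 1.95 to 2.96 FPKM in NC. Of their defining genes, TP63, COL3A1, DCN, PTPRC and PECAM1 were not among the genes of the table.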

How the data were processed

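RNA of 6 libraries was sequenced, and the authors deposited 1 table of FPKM. The submitters' processing notes name StringTie 1.3.3, cutadapt (no version) and GRCh37. No source used here gives the aligner, the annotation or the strand setting. Because FPKM is scaled to the library, a shift shared by every gene is invisible, and StringTie shares reads among overlapping or near-identical transcripts.

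Values were used as log2(FPKM + 1). Genes with a mean of at least 1 FPKM were tested with limma 3.58.1 in R 4.3.3 (two-sided, intensity trend, Benjamini-Hochberg adjustment over 10286 genes, threshold 0.05), and the 95% intervals are limma's. The fit was tested on simulated data. GC content and seed matches came from GENCODE 29 (GRCh38) by Ensembl gene identifier, for 10213 genes (99.3%). Coordinates are the deposited ones, on GRCh37. GC correction subtracted a loess curve (span 0.5) of each library's deviation on GC content. Alternatives were other pseudocounts, filters and scalings, no trend, a replicate block, GC correction and leaving out each library.

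The members and the 7 lists of related genes were chosen with earlier results of these data known. All members were named, with the 3 genes of smallest p in each list and any list gene that passed, except 1 gene that is not reported here.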

Additional observations from a re-analysis of the deposited data

How the results depend on the processing

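The number of genes called, 42 of 10286, was 11 with the replicate block, 113 with GC correction, 12 with the replicate block and GC correction together, 125 with GC correction without NC replicate 3, and 8 to 1527 when 1 library was left out, the highest being without NC replicate 3. The cause was not tested. Members were called in 1 alternative, without NC replicate 3 (3 members, range 0 to 3 over the left-out libraries). That setting also called 1 gene of the other desmosomal list, 5 linkers, 1 filament gene, 1 cadherin junction gene and 3 hemidesmosome genes, each list ranging from 0 to that number over the left-out libraries. With GC correction 1 hemidesmosome gene was called, with or without NC replicate 3. The median log2 fold change of the desmosome genes, -0.11, was -0.045 with GC correction, with or without the replicate block. Values were followed for 28 genes, the members and up to 3 genes of smallest p in each list, none of which passed over all 6 libraries. PPL, EPPK1, KRTCAP3 and LYZ, which also passed without NC replicate 3, are not among the 28. Of 472 values for the 28 genes, 454 kept direction and side of the threshold. Another 9 passed newly, all without NC replicate 3, and 9 turned direction, none of the last called. The filters, the trend and the replicate block leave a fold change as it is, so those values could not turn direction. KRT19 was at 0.036 with GC correction, with or without the block, and at 0.0053 with GC correction without NC replicate 3, and ranged from -0.19 to 0.0049 over the left-out libraries. KRT80 was at 0.053 with GC correction without NC replicate 3 and ranged from -0.22 to 0.029, EVPL was at 0.31 in that setting and ranged from -0.59 to 0.067, and KRT81 ranged from -0.025 to 0.21. Same-numbered libraries did not deviate together (Pearson's r across genes 0.039, -0.042 and 0.068 for replicates 1, 2 and 3), so the block does not rest on a pairing. Depth is unknown, which limits the values of low genes.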
